A study of Homo sapiens with 4 samples.

Results

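Protein tyrosine phosphatases remove phosphate from tyrosine residues and so oppose the tyrosine kinases that carry signals from surface receptors. Described here are 5 genes of this family, the receptor-type genes PTPRF, PTPRO and PTPRC and the cytosolic genes PTPN1 and PTPN6. They were found by platform gene symbol, which gave 20 of the 15154 features of the value table and 5 of 4603 genes with a symbol. The genes were chosen by name with their mean log2 ratios in the MYC siRNA comparison already known. Those ratios are therefore a description, and no test of them is read as a result here.

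The cells were OCI-Ly10, a human lymphoma cell line of the activated B-cell subtype of large-cell B lymphoma. Cells were electroporated with 4 uM of a c-myc siRNA SMARTpool, a commercial pool of siRNAs against the transcription factor MYC, and their RNA was labelled with Cy5. The Cy3 channel of the same array held control RNA from cells electroporated in Solution T with no siRNA (6 h and 24 h) or with 4 uM of nonspecific Renilla Luc siRNA (8 h and 24 h). This gave 4 arrays, 1 for each combination, all of 1 cell line, with 0 dye swaps. Every value below is a log2 ratio of MYC siRNA over control, or a difference between such ratios. Neither the log base nor the direction is stated: log2 was inferred from the range of the values, and MYC siRNA over control, the likely direction, from the labelled dyes. A ratio gives no transcript level. Nothing in the labels says that the arrays came from independent cultures, so a p-value here reflects only how these arrays differ, which may be technical.

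Classical tyrosine phosphatases share a catalytic domain with an active-site cysteine. PTPRC encodes CD45, an abundant surface phosphatase of leukocytes that activates Src-family kinases by removing an inhibitory phosphate. PTPN6 encodes SHP-1, which binds inhibitory receptors of B cells through its SH2 domains and dampens B-cell receptor signals. PTPN1 encodes PTP1B, a phosphatase anchored at the endoplasmic reticulum that acts on the insulin receptor and on JAK2 and TYK2. PTPRF encodes LAR, a receptor with immunoglobulin-like and fibronectin domains studied mostly in epithelium and neurons. PTPRO encodes a receptor with fibronectin repeats known from kidney podocytes, and a shorter form is made in B cells.

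MYC binds as a dimer with MAX to E-boxes, of which CACGTG is the canonical form. The windows around the annotated starts of the 5 genes are therefore of interest, and RefSeq (GRCh38.p14) gave 7 of them, with 250 bases before and 50 after each start. CACGTG was in 0 of the 7 windows, and in 7.26% of 35116 windows of all genes. The looser word CANNTG, which includes CACGTG and reads the same on both strands, was in 4 of the 7 and in 68.7% of all. The windows of PTPRF and PTPN1 and the upstream window of PTPRO held none, PTPRC and the downstream window of PTPRO held 1 each, and those of PTPN6 held 3 and 5, the last with overlapping words. Shown are the window of PTPRF, the gene with the highest mean ratio, the downstream one of PTPRO, and both of PTPN6, which held the most words. They lie on the + strand at chr1:43530633-43530932, chr12:15546361-15546660, chr12:6946327-6946626 and chr12:6951106-6951405, and capitals mark CANNTG. A match is a description of the letters and not a binding site.
PTPRF: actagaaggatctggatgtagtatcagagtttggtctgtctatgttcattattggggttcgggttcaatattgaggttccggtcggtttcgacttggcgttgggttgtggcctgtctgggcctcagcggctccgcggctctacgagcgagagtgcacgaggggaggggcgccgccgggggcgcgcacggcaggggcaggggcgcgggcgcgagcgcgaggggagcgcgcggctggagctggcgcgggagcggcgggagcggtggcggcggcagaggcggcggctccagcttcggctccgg
PTPRO downstream: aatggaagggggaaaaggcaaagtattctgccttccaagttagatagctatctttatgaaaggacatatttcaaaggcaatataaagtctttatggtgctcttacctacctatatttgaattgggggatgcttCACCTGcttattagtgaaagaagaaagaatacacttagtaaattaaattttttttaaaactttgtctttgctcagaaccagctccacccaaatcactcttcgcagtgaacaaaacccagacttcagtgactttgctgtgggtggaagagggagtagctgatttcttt
PTPN6 upstream: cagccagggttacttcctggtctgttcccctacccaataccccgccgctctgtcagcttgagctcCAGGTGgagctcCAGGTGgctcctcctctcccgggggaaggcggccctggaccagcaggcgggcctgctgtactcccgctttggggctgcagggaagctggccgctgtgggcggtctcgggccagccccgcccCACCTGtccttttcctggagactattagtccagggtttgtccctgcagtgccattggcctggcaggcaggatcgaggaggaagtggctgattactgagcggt
PTPN6 downstream: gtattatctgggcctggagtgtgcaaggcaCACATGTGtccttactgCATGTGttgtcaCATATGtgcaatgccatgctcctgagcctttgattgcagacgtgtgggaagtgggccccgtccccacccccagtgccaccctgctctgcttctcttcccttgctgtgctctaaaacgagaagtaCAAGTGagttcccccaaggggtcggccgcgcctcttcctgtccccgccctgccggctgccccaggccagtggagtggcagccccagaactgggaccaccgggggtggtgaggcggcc

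MYC, the targeted gene, averaged -0.89 ± 0.39 (SD, n = 4), with -1.26 (6 h, no siRNA), -0.94 (8 h, control siRNA), -1.03 (24 h, no siRNA) and -0.35 (24 h, control siRNA). It was below 0 on each array, in the direction taken from the dyes, and closest to 0 on the 24 h control-siRNA array, where 11.3% of rows were lower. Arrays held values for 12028 to 12784 features with medians between -0.034 and 0.014, and array pairs correlated across features with Pearson's r of 0.354 to 0.588. The SD over features was 0.447 on the 24 h array against no siRNA and 0.288 to 0.327 on the others. The 5 genes had 65 values in 20 features: 13 features had 4 values, 7 had 1 to 3 and 0 had none. Of the 65 values, 43 lay above 0. Features of 1 gene share the RNA of an array and are not replicates.

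Among the receptor-type genes, PTPRF had ratios above 0 on each of the 4 arrays. Its values were 0.58 (6 h, no siRNA), 0.51 (8 h, control siRNA), 0.82 (24 h, no siRNA) and 0.69 (24 h, control siRNA). On each array it lay above 96.7% to 98.8% of the 6798 rows of the table, a row being a named gene or a feature without a symbol. The mean was 0.65 ± 0.13 (SD, n = 4), a ratio of 1.57-fold. This gene value was put together from 2 features that were never measured on the same array. Feature 28578_1 supplied the 8 h and both 24 h values and feature 15944_1 the 6 h value. Of 3954 named genes with a value on all arrays, 45 (1.14%), PTPRF included, had no single feature with 4 values. The small spread of PTPRF is thus a spread over arrays and over features, which cannot be told apart.

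PTPRO was also above 0 as a gene value on each array, with a mean of 0.61 ± 0.31 (SD, n = 4), or 1.53-fold. Its gene values were 0.90 (6 h) and 0.85 (24 h) on the no-siRNA arrays, and 0.26 (8 h) and 0.43 (24 h) on the control-siRNA arrays. A single feature, 28824_1, had a value on all arrays, with 0.90 (6 h, no siRNA), 0.56 (8 h, control siRNA), 0.85 (24 h, no siRNA) and 0.53 (24 h, control siRNA), and a mean of 0.71 ± 0.19 (SD, n = 4). The other features had 1 value each and both were lower: 16341_1 was at -0.03 at 8 h and 17772_1 at 0.32 at 24 h, each against control siRNA. The lower gene values against control siRNA therefore average features that gave no value against no siRNA. In the whole table, the median of feature means was 0.068 over 4090 features with 1 to 3 values and -0.006 over 10161 with 4 values, and its part in the values of PTPRF and PTPRO was not tested.

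PTPRC, with 9 features the most densely covered of the 5 genes, stayed close to 0 as a gene, with a mean of 0.09 ± 0.05 (SD, n = 4). The gene values were 0.07 (6 h, no siRNA), 0.13 (8 h, control siRNA), 0.03 (24 h, no siRNA) and 0.15 (24 h, control siRNA). Behind this narrow range the features spread widely. The 9 features valued at 6 h lay between -0.15 and 0.26 (SD 0.17), and the 8 at 8 h between -0.20 and 0.54 (SD 0.25). At 24 h they lay between -0.49 and 0.43 (9 features, SD 0.30) on the no-siRNA array and between -0.59 and 0.61 (7 features, SD 0.37) on the control-siRNA array.

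The 7 features of PTPRC with 4 values differed in ratio and in pattern. Their means ran from -0.21 (34270_1) to 0.37 (27123_1), and 3 of the 7 lay below 0. Feature 27123_1 was above 0 on all arrays, at 0.25 (6 h, no siRNA), 0.17 (8 h, control siRNA), 0.43 (24 h, no siRNA) and 0.61 (24 h, control siRNA). Feature 25149_1 had the widest range among the 7, with -0.14 (6 h, no siRNA), 0.54 (8 h, control siRNA), -0.49 (24 h, no siRNA) and 0.06 (24 h, control siRNA). The annotation gives all 9 features the same RefSeq transcript, so which part of the transcript each one reports, and whether any marks the variable exons of CD45, is not known here.

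**Figure D1:**
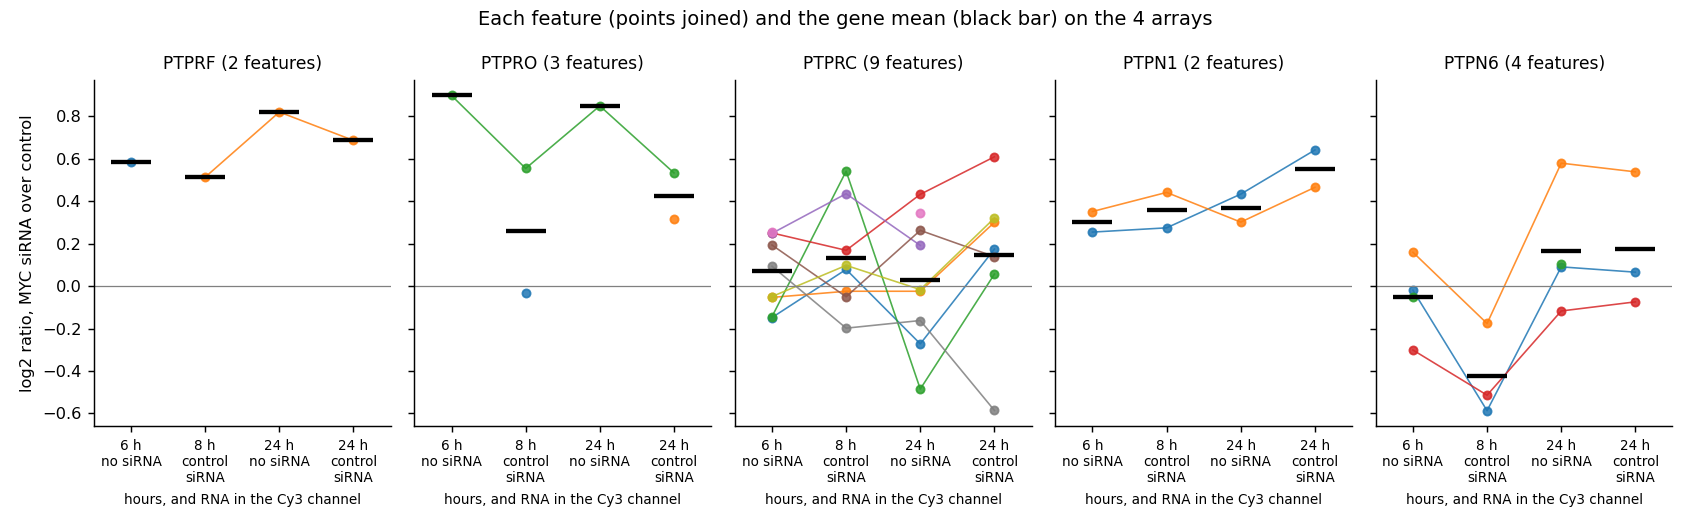
Log2 ratios of MYC siRNA over control for each feature of the 5 genes (joined points) and the gene mean (black bar) on the arrays at 6 h, 8 h and 24 h. PTPRF and PTPRO lie above 0 as gene means on all arrays, the 9 features of PTPRC scatter on both sides of 0, and each PTPN6 feature with both times is higher at 24 h than at the earlier time of the same control.

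Of the cytosolic genes, PTPN1 was above 0 in all 8 values of its 2 features. The gene values were 0.30 (6 h, no siRNA), 0.36 (8 h, control siRNA), 0.37 (24 h, no siRNA) and 0.55 (24 h, control siRNA), with a mean of 0.40 ± 0.11 (SD, n = 4), or 1.32-fold. Its features had close mean ratios, 0.40 ± 0.18 (16947_1) and 0.39 ± 0.08 (19234_1; SD, n = 4 each). PTPN1 thus had the closest match between features among the genes with several complete features. It lay above 84.8% to 97.5% of rows on the arrays.

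PTPN6 had a mean near 0, -0.03 ± 0.28 (SD, n = 4), with different signs by time. The early values were -0.05 (6 h, no siRNA) and -0.43 (8 h, control siRNA), and those at 24 h 0.16 (no siRNA) and 0.18 (control siRNA). Its features differed in ratio: the means of the 3 complete ones were -0.25 (34407_1), -0.11 (17272_1) and 0.28 (19260_1). Both values of the fourth, 30919_1, were against no siRNA, at -0.05 at 6 h and 0.11 at 24 h.

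By limma's test of the mean over all 6798 rows, 3 of the 5 genes passed an adjusted p under 0.05 (PTPRF, PTPRO and PTPN1, all higher), where 15.8% of rows passed in either direction, 10.2% lower and 5.56% higher. Since the genes were chosen with this comparison known, nothing is read from that count, nor from the passes below under other settings. Over features with 4 values alone, PTPRF dropped out and PTPRO and PTPN1 passed. Without the 24 h array against control siRNA or without the 6 h array 0 of the 5 passed, when 4 and 0 of all rows did, and 1895 and 2179 rows had an unadjusted p under 0.05. Without the 8 h array PTPRF and PTPRO passed, when 441 of all rows did. Without the 24 h array against no siRNA PTPRF passed, when 234 of all rows did.

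The choice of the genes is not stated to have used the difference between 24 h and the early arrays. This difference was tested with control kind as a second term. PTPN6 had the largest difference of the 5, with 0.17 at 24 h and -0.24 on the early arrays (means of n = 2 each). The difference was 0.41, with a 95% interval of 0.02 to 0.80, and did not pass (limma unadjusted p = 0.0422, adjusted p = 0.463). It was 0.22 among the arrays against no siRNA and 0.60 among those against control siRNA. MYC differed by about as much, with -0.69 at 24 h and -1.10 on the early arrays, a difference of 0.41 (limma unadjusted p = 0.0433, adjusted p = 0.4675), and its part in the difference of PTPN6 was not tested. All 4 features with both times were higher at 24 h against no siRNA, and all 3 were against control siRNA, by 0.11 to 0.42 and by 0.44 to 0.72. These features share the RNA of the arrays and are not replicates. The median time difference over all rows was 0, and the share of all features higher at 24 h was not computed. Feature 19260_1 differed most, with 0.56 at 24 h and -0.01 on the early arrays (limma unadjusted p = 0.0094, adjusted p = 0.24).

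For the other 4 genes the interval of the time difference held 0. The difference was 0.21 for PTPRF (95% interval -0.18 to 0.59), 0.13 for PTPN1 (-0.25 to 0.51), 0.06 for PTPRO (-0.33 to 0.44) and -0.01 for PTPRC (-0.40 to 0.37). That of PTPRF also compares different features, since 15944_1 gave the 6 h value and 28578_1 the others. Within 28578_1, 24 h minus 8 h against control siRNA was 0.17. PTPRO mixes features too, and its 28824_1 by itself differed by -0.035. Within PTPRC the features split: the difference was -0.41 for 25149_1 and -0.32 for 34270_1, and 0.31 for 27123_1. In all, 0 of 5 genes passed limma's adjusted threshold, against 8 of 6798 rows (0.118%). Limma's unadjusted p was under 0.05 for 1 of the 5 genes and for 687 of the 6798 rows. Over single features 0 of 13 passed, against 0.728% of 10161 features. An unadjusted p under 0.05 in limma was found for 1 of the 13 and for 1056 of the 10161. The model has 1 residual degree of freedom per row. The intervals above do not show that the ratios were alike at both times.

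**Figure D2:**
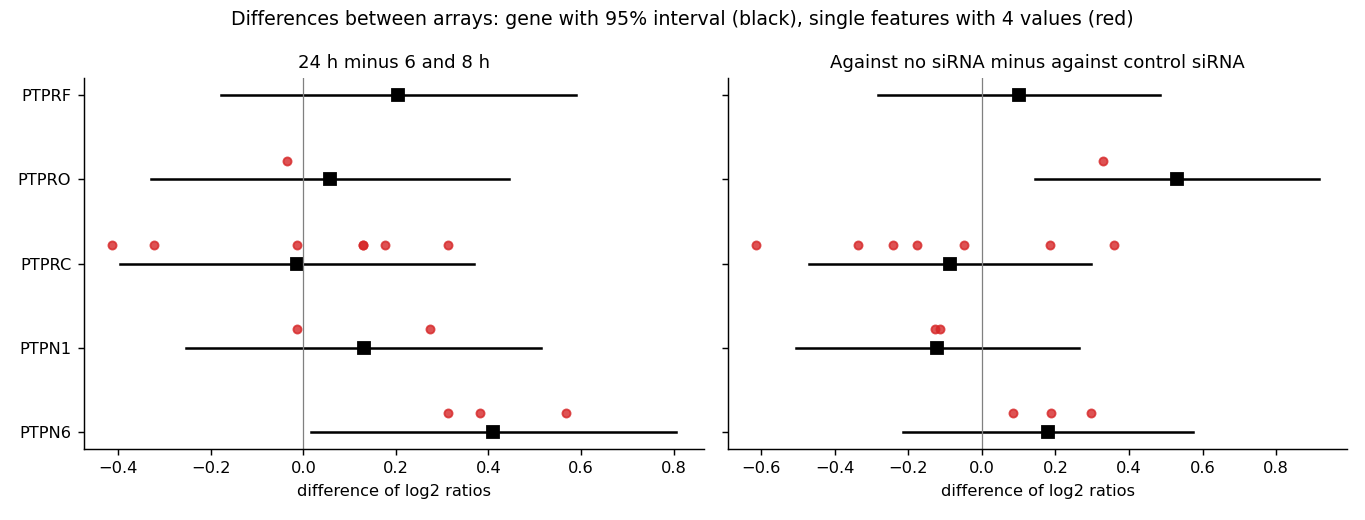
Differences of log2 ratios for each gene (black square, with limma's 95% interval) and for single features with 4 values (red), for 24 h minus 6 and 8 h (left) and for arrays against no siRNA minus those against control siRNA (right). The 3 complete features of PTPN6 lie at 0.31 to 0.57 on the left, and those of PTPRC spread across 0 on both sides.

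The kind of control was compared in the same model. The early arrays differ in hours as well as in control, 6 h against no siRNA and 8 h against control siRNA. The identifiers in the array titles fall into 2 ranges that go with the control. What these ranges stand for is not stated, so control kind and whatever they mark cannot be told apart. PTPRO had the largest difference, with 0.87 on arrays against no siRNA and 0.34 on those against control siRNA (means of n = 2 each). The gene difference was 0.53 (95% interval 0.14 to 0.92) and did not pass (limma unadjusted p = 0.00975, adjusted p = 0.252). On feature 28824_1 by itself it was 0.33 (limma adjusted p = 0.642 over single features). The gene value also averages 16341_1 and 17772_1, which were valued on the control-siRNA arrays alone. MYC was at -1.15 against no siRNA and -0.64 against control siRNA, a difference of -0.50 (limma unadjusted p = 0.0154, adjusted p = 0.313), whose part in that of PTPRO was not tested. PTPN6 differed by 0.18, PTPRF by 0.10, PTPRC by -0.09 and PTPN1 by -0.12, each with an interval that held 0. For PTPN6 the difference was 0.37 between the early arrays and -0.01 between the 24 h arrays. The difference of PTPRF again mixes features, since 15944_1 gave only the 6 h value and 28578_1 the others. Both features of PTPN1 were lower against no siRNA, with differences of -0.11 and -0.13. In limma 0 of 5 genes passed, against 0.0883% of rows. Unadjusted p was under 0.05 for 1 of the 5 genes and for 685 of 6798 rows. Over single features 0 of 13 passed, against 0.561% of all. Limma's unadjusted p was under 0.05 for 1056 of 10161 features and for 1 of the 13. That 1 was 25149_1 of PTPRC, with -0.31 against no siRNA and 0.30 against control siRNA.

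The nearest relatives of the 5 genes did not all lie on the same side of 0. These were picked by kinship after values had been seen. PTPRD and PTPRS form the LAR group with PTPRF. PTPRD fell, with -0.14 (6 h, no siRNA), -0.50 (8 h, control siRNA), -0.45 (24 h, no siRNA) and -0.43 (24 h, control siRNA), and a mean of -0.38 ± 0.16 (SD, n = 4; limma adjusted p = 0.029). PTPRS had values against no siRNA alone, 0.28 at 6 h and 0.36 at 24 h. PTPRB, of the same subgroup as PTPRO, was at 0.27 ± 0.20 without passing (limma adjusted p = 0.0887), and PTPRH of that subgroup had 1 value, 0.46 at 8 h. PTPN2, which encodes TC-PTP and is the closest relative of PTPN1, was below 0 on all arrays, at -0.11 (6 h, no siRNA), -0.16 (8 h, control siRNA), -0.23 (24 h, no siRNA) and -0.08 (24 h, control siRNA). Its mean was -0.15 ± 0.07 over 7 features and did not pass (limma adjusted p = 0.231). PTPN11, which encodes SHP-2, the relative of SHP-1, had 1 value, -0.61 at 24 h against control siRNA.

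Over the rest of the classical family, 25 of 32 listed genes were on the array and 19 had a value on all 4 arrays. Of these, 0 rose, 1 fell (PTPRD) and 18 did not pass, where 15.8% of all rows passed. The median of their means was 0.06, against -0.003 over all rows. PTPRD did not pass with any single array left out. With time and control as terms 4 passed higher (PTPN13, PTPRB, PTPRE and PTPRZ1) and 2 lower (PTPRD and PTPN4). Of the 6798 rows, 856 passed higher and 1124 lower in that model. The means of the 9 other receptor-type genes had a median of 0.12 and those of the 10 other cytosolic genes a median of -0.05. Limma's unadjusted p was under 0.05 for 4 of the 9 and 2 of the 10, and for 2405 of the 6798 rows. The highest receptor-type gene, PTPRN2, averaged 0.29 ± 0.69 with 1.31 at 8 h and, on the other arrays, -0.05 (6 h), 0.12 (24 h, no siRNA) and -0.21 (24 h, control siRNA). PTPN13, a large cytosolic phosphatase with PDZ domains, was the highest cytosolic gene at 0.42 ± 0.39 (SD, n = 4; limma adjusted p = 0.0679). Like PTPRO it was higher against no siRNA, with 0.75 at 6 h and 0.76 at 24 h, than against control siRNA, with -0.01 at 8 h and 0.18 at 24 h (difference 0.67, limma adjusted p = 0.125). Of the 2 features of PTPN13 only 1 had 4 values, so this difference may also mix features. PTPN4 was the lowest cytosolic gene, at -0.27 ± 0.16 (limma adjusted p = 0.0717). Values above 0 on all 4 arrays were found for 2 of the 19 genes and values below 0 for 3, against 19.4% and 23.3% of all rows.

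**Figure D3:**
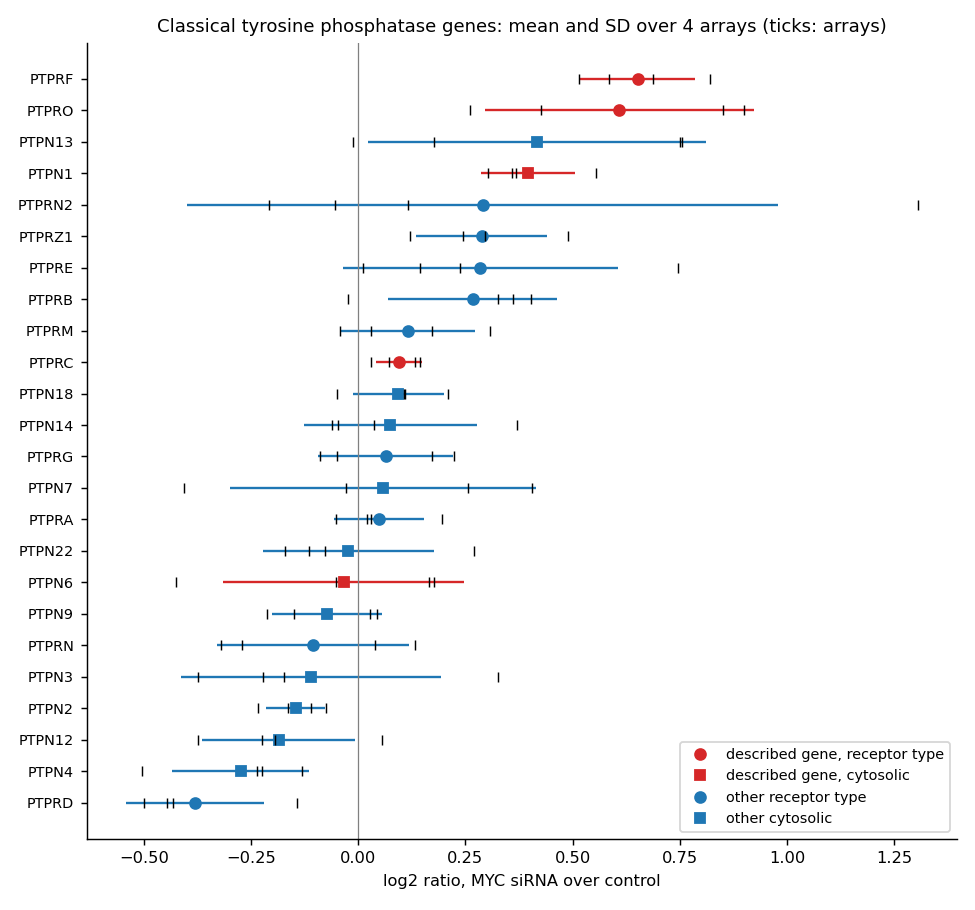
Mean log2 ratio of MYC siRNA over control with its SD over 4 arrays (bars) and the value on each array (ticks) for 24 classical tyrosine phosphatase genes. PTPRF and PTPRO are at the top, PTPN1 lies close to PTPN13, PTPRC and PTPN6 lie near 0, and PTPRD is lowest at -0.38.

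Other phosphatases were read from lists of their own. Of 17 dual-specificity and lipid phosphatase genes, 0 rose, 1 fell and 16 did not pass, with a median of -0.07, where 5.56% of all rows passed higher and 10.2% lower. Unadjusted p was under 0.05 for 6 of the 17, and for 2405 of the 6798 rows. The gene that fell was DUSP12, at -0.39 ± 0.23 (SD, n = 4; limma adjusted p = 0.0376). DUSP6, which inactivates ERK, was highest at 0.29 ± 0.33 and did not pass (limma adjusted p = 0.134). Of 4 genes from other phosphatase classes 0 passed and 1 had an unadjusted p under 0.05 in limma, with a median of 0.12. They included ACP1, the low-molecular-weight phosphatase, at -0.24 ± 0.10 and CDC25C, which activates CDK1 at mitosis, at 0.15 ± 0.19.

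Partners of the 5 phosphatases in B-cell signalling were read in the same way. Of 11 inhibitory receptors that recruit SHP-1 or SHP-2, CD72 rose, 0 fell and 10 did not pass (median 0.07). CD72, a B-cell receptor of this kind, had 0.17 (6 h, no siRNA), 0.30 (8 h, control siRNA), 0.88 (24 h, no siRNA) and 0.29 (24 h, control siRNA), with limma adjusted p = 0.0482. PECAM1 was lowest, at -0.13 ± 0.16. Of 20 tyrosine kinase genes KIT, a receptor kinase, rose (0.35 ± 0.16, limma adjusted p = 0.0352), 0 fell and 19 did not pass (median 0.06). PTK2B, a focal adhesion kinase relative, was lowest at -0.17 ± 0.19. Of 20 B-cell receptor and STAT signalling genes 2 rose, 0 fell and 18 did not pass (median 0.06). These were CD79A, the Ig-alpha subunit beside surface immunoglobulin (0.41 ± 0.27, limma adjusted p = 0.039), and SOCS3, a feedback inhibitor of JAK signalling (0.36 ± 0.22, limma adjusted p = 0.0418). BLNK, the adaptor below SYK, was lowest at -0.22 ± 0.17. Altogether 6 of 91 genes in the 7 lists passed, where 15.8% of all rows did, and 24 of the 91 had an unadjusted p under 0.05 in limma, as did 2405 of 6798 rows. With any single array left out, 0 of these 6 genes passed in limma and 13 to 19 of the 91 had an unadjusted p under 0.05. Without the 8 h array PTPN13 passed in their place. Of the 6798 rows, 0 to 441 passed with 1 array left out. With time and control as terms 16 of the 91 passed, the 6 among them, when 1980 of 6798 rows did. Over features with 4 values alone PTPRB passed and KIT did not, when 1175 of 6753 rows passed. With the median of features LCK passed and SOCS3 did not, when 1051 of 6798 rows passed. With rows of at least 3 values CD72 and SOCS3 did not pass, when 917 of 7598 rows did. By time and by control kind 0 of the 91 passed in limma, and 8 had an unadjusted p under 0.05 in each. Of the 6798 rows, 687 (time) and 685 (control kind) had such a p.

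**Figure D4:**
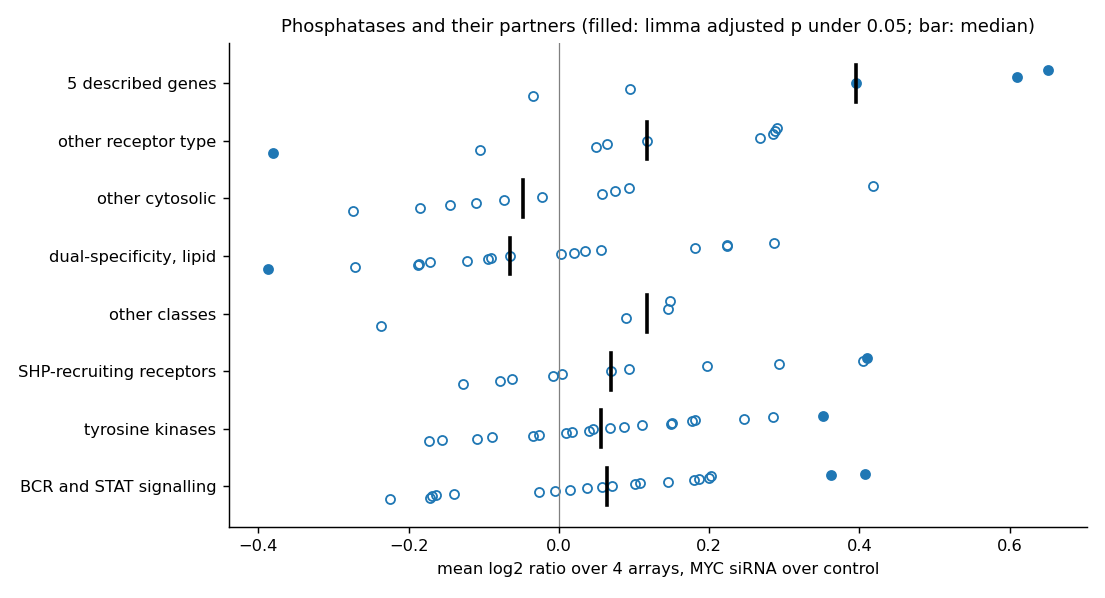
Mean log2 ratio over 4 arrays for the 5 genes and for the genes of each list of phosphatases and signalling partners (points, filled where limma's adjusted p was under 0.05), with the median of each list as a black bar. Medians of the 7 lists lie between -0.07 and 0.12. The 5 genes were chosen with this comparison known, so nothing is read from which of their points are filled.

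Markers of cell types were checked as ratios, which show no level of any of them. Of 9 B-cell markers, which include CD72 and CD79A of the lists above, CD72, CD74 and CD79A rose, where 5.56% of all rows passed higher. The other 6 did not pass (median of the 9, 0.20). CD79B (0.20), PAX5 (0.10) and SPIB (0.26) lay above 0, and CD22 (-0.06), MS4A1 (-0.06) and POU2AF1 (-0.11) below 0. Of 9 T and NK cell markers 0 passed and 2 had an unadjusted p under 0.05 in limma (median 0.16), as did 2405 of 6798 rows. Of 2 myeloid markers 0 passed and 0 had such a p, CD68 (0.17) and ITGAM (0.09). Of 3 epithelial markers, KRT8 was at 0.27 ± 0.19, KRT18 at 0.14 ± 0.12 and CDH1 at -0.16 ± 0.28 (SD, n = 4 each). In limma 0 of the 3 passed, and 1 had an unadjusted p under 0.05. Their part in the ratios of the phosphatase genes was not tested.

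By Euclidean distance over the log2 ratios of the 4 arrays, the genes with the most similar values were sought among 3953 named genes. A pattern shared with a nearest gene follows from this choice and is not a separate result. For PTPRO these were MACF1 (distance 0.0647), POM121 (0.0683) and IL13 (0.232). MACF1, like PTPRO, was higher on the no-siRNA arrays, with 0.88 (6 h) and 0.89 (24 h), than on the control-siRNA arrays, with 0.23 (8 h) and 0.40 (24 h). For PTPRF they were CALD1 (0.287), ADD2 (0.329) and CD1C (0.332), and for PTPN1 CD74 (0.148), GSTM3 (0.158) and ITGA8 (0.167). PTPN6 was closest to MCFD2 (0.147), HMGN3 (0.164) and TCL1A (0.189), which were likewise lowest at 8 h. MACF1, POM121 and MCFD2 had 1 feature each. TCL1A had -0.11 (6 h, no siRNA), -0.42 (8 h, control siRNA), 0.26 (24 h, no siRNA) and 0.03 (24 h, control siRNA). PTPRC, near 0 on all arrays, had PELO (0.0586), E4F1 (0.0597) and BLOC1S1 (0.0653) as nearest genes.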

How the data were processed

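The values were the log2 ratios of the 2-colour arrays as deposited by the authors, 1 per feature and array. Log base, direction and array normalization were not given in the sources used here. Ratios were taken as log2 of Cy5 (MYC siRNA) over Cy3 (control), per the labels' dyes. Of 15154 features, 10165 had 1 symbol in the platform annotation, 4 several and 4985 none. Symbols were updated by Entrez ID through RefSeq (GRCh38.p14; 10124 matched). Features of 1 symbol were averaged on each array, and the 6798 rows with 4 values were kept. Limma 3.58.1 in R 4.3.3 (lmFit and eBayes) tested the mean against 0 and, in a second model, time class and control kind, with Benjamini-Hochberg adjustment over all rows and a threshold of 0.05. Prior degrees of freedom were 17.5 in the second model against 1 residual, and 6.31 against 3 in the first, so the intervals of the second rest mostly on the spread pooled over rows. The code was tested on simulated data.

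Members and lists were chosen with earlier results of these data known. Named were the 5 genes, up to 6 passing genes each way and the highest and lowest of each list, the 2 largest passing each way by time and control, 3 nearest genes each, and relatives added after values were seen. Precision is limited by the 4 arrays, with a median standard error of 0.0951 (mean ratio) and 0.185 (time difference).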

Additional observations from a re-analysis of the deposited data

Results flagged for a closer look

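PTPN6 had ratios above 0 on both 24 h arrays and below 0 on both early arrays, a difference of 0.41, and its feature 17272_1 did the same with 0.38. Neither passed limma's test of the difference (adjusted p = 0.463 and 0.553). Feature 17272_1 also had 1 value far from the other 3, -0.59 at 8 h.

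For 3 features of PTPRC the ratios were below 0 on both arrays against no siRNA and above 0 on both against control siRNA. The differences were -0.34 (16553_1), -0.61 (25149_1) and -0.24 (34399_1), and limma's adjusted p over single features was 0.626, 0.182 and 0.795. Feature 17597_1 of PTPRC had 1 value apart from the others, 0.30 at 24 h against control siRNA. CD79A likewise had 0.81 at 24 h against no siRNA, against 0.24 to 0.32 on the other arrays. In all 34 genes and features were examined, and chance sets 1 value apart in about 1 of 20. Of the 34, 3 were flagged for a value apart and 5 for opposite signs between groups of arrays. The share of all features with such opposite signs was not computed, so nothing is read from that count.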

How the results depend on the processing

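No alternative brought a time or control difference of the 5 genes past the adjusted threshold in limma. For PTPN6 by time the difference ran from 0.36 to 0.42 over settings with all arrays (adjusted p 0.455 to 0.769), and from 0.22 to 0.60 with 1 array left out. For PTPRO by control it ran from 0.33 to 0.56 (adjusted p 0.168 to 0.632). Mean ratios moved by less than their SD in all 54 repeats, but most repeats could not have given another outcome. Leaving out 1 of 4 arrays cannot move a mean by a full SD. A robust prior, rows of at least 3 values, and time and control as terms leave the means of these genes unchanged. With 1 array left out they ran from 0.60 to 0.70 for PTPRF, 0.51 to 0.73 for PTPRO, 0.34 to 0.43 for PTPN1, 0.08 to 0.12 for PTPRC and -0.10 to 0.10 for PTPN6. PTPRF gives no value over features with 4 values. List medians moved by more than their spread once, for the tyrosine kinases, whose median was 0.0566 to 0.1043 with 1 array left out (highest without the 24 h no-siRNA array).

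Counts over all rows were less stable. For MYC siRNA 1073 rows passed, 1980 with time and control as terms, 1971 over single features, and 0 to 441 with 1 array left out. By time 8 passed, against 98 with the median of features, 26 over complete features, 61 with centred and 0 with scaled arrays, 5 with a robust prior, 0 with each term by itself and 74 over single features. By control kind 6 passed, against 162, 37, 87 and 0 in the first 4 of these settings, 0 with each term by itself and 57 over single features. Where 0 rows passed, 590 (scaled) and 437 (by itself) had an unadjusted p under 0.05 in limma by time, and 679 and 454 by control kind. The cause was not tested. With 1 array left out, time and control differences have no residual degrees of freedom and are values with no test. With rows of at least 3 values, the time and control terms were not run. By replicate number, no paired analysis was possible because the numbers follow the order of listing only. Control kind as a term does set each 24 h array against the early array of the same control.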
